A study of Mus musculus with 12 samples.

Results

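Ccr2, Cx3cr1, Ly6c2, Cd52 and Plac8 are 5 genes used to trace the recent descent of a macrophage from blood monocytes. They were looked up by Ensembl identifier in a count table of 46517 genes and described in macrophages sorted from the aorta and from fat of adult wild type C57/BL6 mice. All 5 passed the filter on low counts and were among the 14216 genes tested. The sort took viable CD45+ cells with surface F4/80, CD11b, MerTK and CD64, and then split them by LYVE-1, a hyaluronan receptor. The 4 groups are aorta LYVE1+, aorta LYVE1-, fat LYVE1+ and fat LYVE1-, with 3 libraries each, and no group was treated. The aortic cells were pooled from 30 mice, and the fat cells were pooled from epididymal and subcutaneous depots of 20 mice. How the animals were divided among the 3 libraries is not given in the labels, so p-values measure the spread between these libraries, which may be technical. Total counts ran from 5049936 to 29792301 per library.

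Monocytes leave the bone marrow through CCR2, a receptor for the chemokine CCL2, and the inflammatory (classical) kind carries a high level of the Ly6C surface antigen. Patrolling (nonclassical) monocytes carry little Ly6C and CCR2 and much CX3CR1, the receptor for the membrane-bound chemokine fractalkine. Macrophages that descend from monocytes keep some of these transcripts for a time, while long-lived resident macrophages of several tissues have low CCR2. None of the 5 genes belongs to monocytes alone: CX3CR1 is also carried by resident macrophages of some tissues, and Ly6c2, Plac8 and Cd52 are also transcribed in lymphocytes.

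Both fat libraries numbered 1 stood apart. Fat LYVE1+ library 1 had 8.85% mitochondrial counts and fat LYVE1- library 1 had 12.1%, against 1.79% to 3.20% in the other 10 libraries. Fat LYVE1+ library 1 also held 524 CPM (counts scaled to the size of the library) of B and plasma cell markers, summed over 7 genes. All 7 were detected, which here and below means a count in at least 1 of the 12 libraries. Jchain, 1 of the 7, had no count in fat LYVE1+ library 1. The other fat LYVE1+ libraries held 19.9 and 22.4 CPM of these markers. Fat LYVE1- library 1 held 185 CPM of them, and the other fat LYVE1- libraries held 37.0 and 41.3 CPM. The 12 T and NK cell markers, all detected, reached 296 CPM together in fat LYVE1+ library 1, and 148 CPM in its LYVE1- counterpart. In the other 4 fat libraries they came to 24.6 to 31.5 CPM. Most of that was Cd4, at 16.1 to 20.3 CPM, while Cd3e, Cd3d and Cd3g were each at 1.16 CPM or less there. The 5 erythroid markers, all detected, came to 25920 CPM in fat LYVE1+ library 1 and 5271 CPM in fat LYVE1- library 1, against 211 to 287 CPM in the other 4 fat libraries. Ccr7, a receptor of migrating dendritic cells and of lymphocytes, had 220 CPM in fat LYVE1+ library 1 and 235 CPM in fat LYVE1- library 1, against 4.16 to 31.0 CPM in the other 4. The 8 conventional dendritic cell markers, all detected, were also highest in these libraries, at 530 and 543 CPM. The 6 genes of the gate and of macrophages (Ptprc, Fcgr1, Mertk, Itgam, Adgre1 and Csf1r) were lowest there, with 6411 CPM in fat LYVE1+ library 1 and 5004 CPM in fat LYVE1- library 1, against 7298 CPM or more in each other library. The neutrophil marker Ly6g had no count in any library.

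The letters around the starts of 4 of the genes are shown because the members did not move as 1 set. These windows let the starts be set side by side. Each is the 300 bases from 250 before to 50 after the start of transcription given by RefSeq (GRCm38.p6). They are written 5′ to 3′ in the direction of the gene, and 4 of the 5 genes were matched. Ly6c2 and Plac8 each had 2 listed starts, and the one nearest the 5′ end of the gene was taken. Capitals mark GAGGAAGT, a form of the site of PU.1, the transcription factor of myeloid cells, searched on both strands.
Ccr2, chr9:124101933-124102232, plus strand: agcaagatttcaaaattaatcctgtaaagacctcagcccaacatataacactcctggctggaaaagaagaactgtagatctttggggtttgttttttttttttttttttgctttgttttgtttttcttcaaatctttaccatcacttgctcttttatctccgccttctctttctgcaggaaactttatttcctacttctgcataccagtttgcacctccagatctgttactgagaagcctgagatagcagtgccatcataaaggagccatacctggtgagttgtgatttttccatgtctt
Cx3cr1, chr9:120068247-120068546, minus strand: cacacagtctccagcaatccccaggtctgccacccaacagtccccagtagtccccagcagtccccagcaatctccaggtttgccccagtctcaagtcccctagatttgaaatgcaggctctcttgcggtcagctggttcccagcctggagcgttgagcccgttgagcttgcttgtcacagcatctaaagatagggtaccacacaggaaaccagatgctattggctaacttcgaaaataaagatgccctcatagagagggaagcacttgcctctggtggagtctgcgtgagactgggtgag
Ly6c2, chr15:75111922-75112221, minus strand: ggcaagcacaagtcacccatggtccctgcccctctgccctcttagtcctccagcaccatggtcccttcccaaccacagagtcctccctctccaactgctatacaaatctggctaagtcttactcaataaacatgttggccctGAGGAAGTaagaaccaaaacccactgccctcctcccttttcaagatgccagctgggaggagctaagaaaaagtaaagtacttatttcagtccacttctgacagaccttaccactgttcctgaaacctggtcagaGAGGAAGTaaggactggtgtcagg
Plac8, chr5:100572156-100572455, minus strand: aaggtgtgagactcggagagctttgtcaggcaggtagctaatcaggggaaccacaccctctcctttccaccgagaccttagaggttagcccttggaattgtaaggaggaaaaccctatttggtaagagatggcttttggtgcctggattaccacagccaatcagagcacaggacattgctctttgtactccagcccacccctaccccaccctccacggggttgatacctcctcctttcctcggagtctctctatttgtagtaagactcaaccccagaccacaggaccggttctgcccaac
The Ly6c2 window held 2 matches, the first before and the second after the start of transcription. The other 3 windows held none, and 3.2% of 32851 promoter windows in the table held at least 1. Neither TTGCGCAA, a C/EBP site (0.183% of windows), nor the joint site of PU.1 and IRF factors (2.72% of windows) was found in the 4 windows on either strand. The 3 motifs were chosen with these sequences in view, and a match is a description of the letters and not a bound site.

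LYVE1+ macrophages of both tissues had less Ccr2 than their LYVE1- neighbours, and LYVE1+ macrophages of fat also had less Cx3cr1. These 3 were the calls among the 5 genes by LYVE-1 (adjusted p below 0.05, edgeR quasi-likelihood test). In the aorta 1 of 5 genes was called lower, where 0.429% of all tested genes were called lower and 0.113% higher (0.542% in either direction). In fat 2 of 5 were called lower, where 2.10% of all tested genes were called lower and 1.82% higher (3.93% in either direction). The median of the 5 log2 fold changes was -2.45 in the aorta and -1.82 in fat. Each is the value of 1 gene that was not called, Ly6c2 in the aorta (SE 1.16, adjusted p = 0.458) and Cd52 in fat (SE 0.57, adjusted p = 0.107). The median over all tested genes was -0.01 in the aorta and 0.00 in fat. Plac8 had a positive value in fat and a negative one in the aorta, and neither was called. Because these are bulk libraries, fewer cells that carry a transcript and less of it per cell cannot be told apart.

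**Figure D1:**
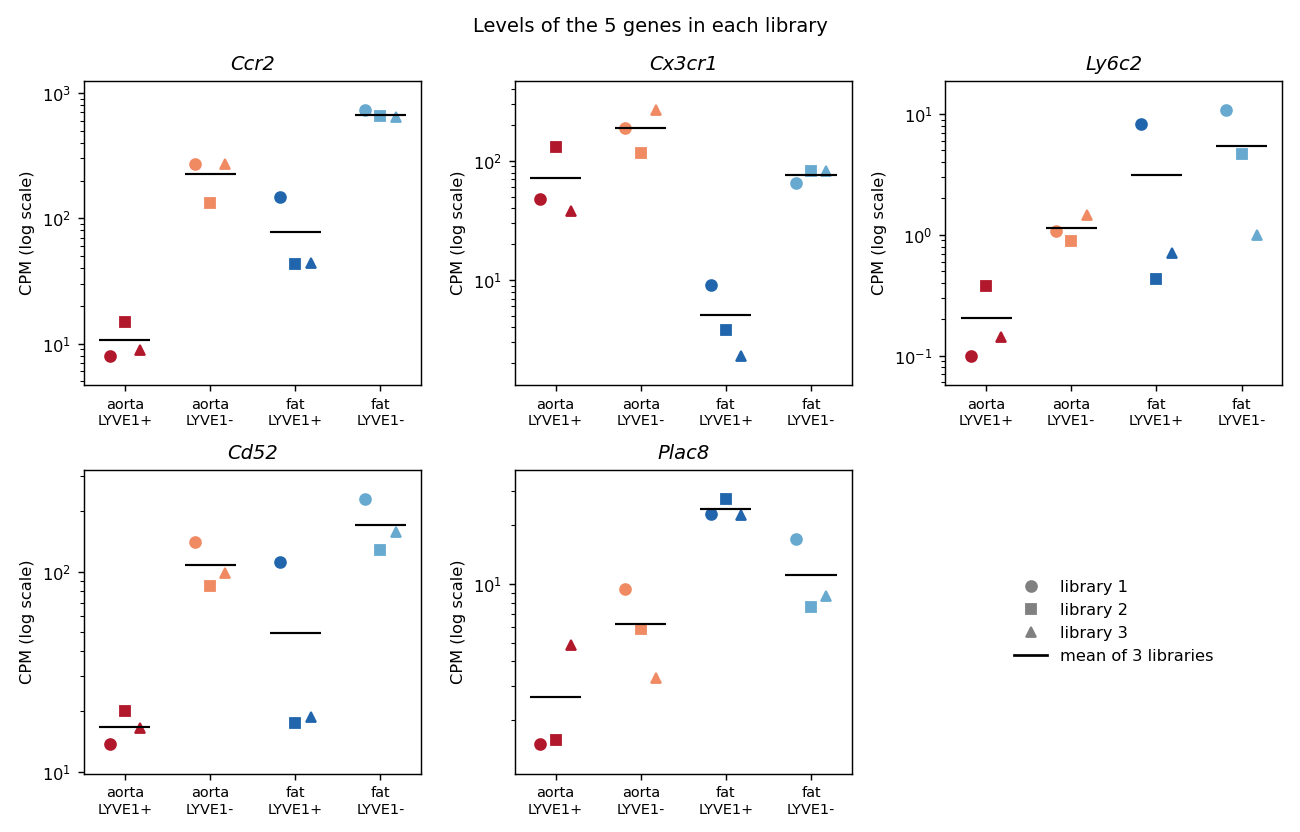
Levels of the 5 genes in CPM on a log axis, by group, with 1 symbol shape per library number and a bar at the mean of 3 libraries. The Ccr2 libraries of LYVE1+ cells lie below those of LYVE1- cells in each tissue, in the aorta with 8.02 to 14.8 CPM against 132 to 270 CPM, in fat with 43.4 to 147 CPM against 637 to 725 CPM, whereas Plac8 is at 22.5 to 27.3 CPM in fat LYVE1+ libraries and 7.65 to 17.1 CPM in fat LYVE1- libraries.

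Among the receptors, Ccr2 (ENSMUSG00000049103.12, plus strand of chromosome 9, 124101950 to 124113557, 6.76 kb of merged exons) had 8.02, 14.8 and 8.96 CPM in aorta LYVE1+ libraries 1 to 3, against 269, 132 and 270 CPM in aorta LYVE1- libraries 1 to 3. The 2 aortic groups did not overlap, as was so for 22.4% of all tested genes. The counts behind these values were 126 to 197 in aorta LYVE1+ libraries and 3886 to 4441 in aorta LYVE1- libraries. The gene was 21.2-fold lower in aorta LYVE1+ cells (-4.40 with an SE of 0.49 on the log2 scale, adjusted p = 0.00198), and it had the 4th smallest p of the tested genes. The call held in each of the 12 fits that left out 1 library.

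In fat, Ccr2 had 147, 43.4 and 44.1 CPM in LYVE1+ libraries 1 to 3, against 725, 649 and 637 CPM in LYVE1- libraries 1 to 3. All LYVE1+ libraries of fat were below all LYVE1- libraries, and library 1 was the highest of its sort. Ccr2 was 8.63-fold lower in fat LYVE1+ cells (-3.11 with an SE of 0.46 on the log2 scale, adjusted p = 0.00237), and without fat LYVE1+ library 1 the log2 fold change was -3.93 (adjusted p = 4.10e-05). For Ccr2 the LYVE1 effect of the aorta minus that of fat came to -1.29 (95% interval -2.61 to 0.03, adjusted p = 0.826), and -0.47 without that library.

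The aortic call of Ccr2 was lost when the prefix of the library identifiers was in the model. Aorta LYVE1+ libraries 1 and 2 carry the prefix RMM, and the other 4 aortic libraries carry RHH, while all fat libraries carry RMM. What the prefix stands for is not given in the labels. With the prefix in the model the log2 fold change was -4.64 (SE 0.85), against -4.40 (SE 0.49) without it, and the adjusted p was 0.257. That fit called 2 of all tested genes in the aorta. Among the RHH libraries of the aorta alone, LYVE1+ library 3 had 8.96 CPM against 132 to 270 CPM in the 3 LYVE1- libraries.

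Markers of some other cell types moved with Ccr2 and Cd52 in the aorta, and others did not. The 8 conventional dendritic cell markers totalled 165 to 190 CPM over the LYVE1+ libraries, against 288 to 373 CPM over the LYVE1- ones, and all 8 had negative log2 fold changes (median -2.85). Of these, Clec9a, the receptor that defines cross-presenting dendritic cells, was called lower, with no count in LYVE1+ libraries and 1.64 to 8.63 CPM in LYVE1- libraries. Of 6 mast cell markers 5 were detected (Ms4a2 was at 0 in every library), and they came to 1.84 to 12.7 CPM in LYVE1+ cells, against 44.1 to 69.9 CPM in LYVE1- cells. The 6 eosinophil markers, all detected, came to 1.77 to 3.75 CPM in LYVE1+ cells, against 10.5 to 29.6 CPM in LYVE1- cells, with Prg2 called lower and at 0 in each LYVE1+ library. The 8 neutrophil markers, 7 of them detected, held 47.0 to 54.6 CPM in LYVE1+ cells, against 62.2 to 81.0 CPM in LYVE1- cells. Nearly all of this was Csf3r, at 46.7 to 52.9 CPM in LYVE1+ and 61.5 to 75.9 CPM in LYVE1- libraries. S100a8 and S100a9 had no count in any aorta LYVE1- library. None of these 4 sums overlapped between the aortic groups. The 5 adipocyte markers were also lower without overlap, at 1.95 to 2.97 CPM in LYVE1+ and 3.28 to 7.32 CPM in LYVE1- libraries. Plasmacytoid dendritic markers went the other way, at 510 to 567 CPM in LYVE1+ and 430 to 493 CPM in LYVE1- libraries. The aortic sums of lymphocyte, erythroid, fibroblast, endothelial, smooth muscle and peritoneal macrophage markers overlapped. In fat the sums of conventional dendritic, mast and eosinophil markers overlapped between the groups. The conventional dendritic sum was 346 to 530 CPM in LYVE1+ and 230 to 543 CPM in LYVE1- libraries of fat. Of its 8 genes 6 had negative values there, while Cd209a was called higher. The plasmacytoid dendritic sum did not overlap in fat, at 377 to 441 CPM in LYVE1+ and 212 to 294 CPM in LYVE1- libraries. The part of other cell types in the aortic levels of Ccr2 and Cd52 was not tested.

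Cx3cr1 (ENSMUSG00000052336.6, minus strand of chromosome 9, 119901616 to 120069879, 4.5 kb of merged exons) had 47.7, 132 and 38.4 CPM in aorta LYVE1+ libraries 1 to 3, against 190, 116 and 266 CPM in aorta LYVE1- libraries 1 to 3. Library 2 was the highest LYVE1+ and the lowest LYVE1- library of the aorta, and there the groups overlapped. The log2 fold change in the aorta was -1.39 (95% interval -2.39 to -0.39, adjusted p = 0.259). It was -2.14 without aorta LYVE1+ library 2 (adjusted p = 0.0638) and -2.31 with the identifier prefix in the model (adjusted p = 0.593). With no filter on low counts Cx3cr1 was called in the aorta (-1.39, SE 0.30, adjusted p = 0.00427).

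In fat, Cx3cr1 had 9.02, 3.81 and 2.32 CPM in LYVE1+ libraries 1 to 3, against 64.9, 82.8 and 82.8 CPM in LYVE1- libraries 1 to 3. The 2 groups of fat were far apart, with 23 to 47 counts in a LYVE1+ library and 507 to 844 counts in a LYVE1- library. The gene was 16.4-fold lower in fat LYVE1+ cells (-4.04 with an SE of 0.56 on the log2 scale, adjusted p = 0.00158). The LYVE1 effect in the aorta minus that in fat was 2.65 (95% interval 1.12 to 4.17), and this difference was not called over all tested genes (adjusted p = 0.303). It was called when no filter on low counts was used (2.65, SE 0.45, adjusted p = 0.000797). It was 1.89 without aorta LYVE1+ library 2, 3.24 without fat LYVE1+ library 1 and 1.73 with the prefix in the model. The LYVE1 effect in fat was -4.63 without fat LYVE1+ library 1 (adjusted p = 0.000572).

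Among the surface proteins, Cd52 (ENSMUSG00000000682.7, minus strand of chromosome 4, 134082448 to 134095082, 1.19 kb of merged exons) encodes a small glycoprotein tethered to the membrane of lymphocytes and myeloid cells. It had 13.7, 20.0 and 16.5 CPM in aorta LYVE1+ libraries 1 to 3, against 141, 84.8 and 98.0 CPM in aorta LYVE1- libraries 1 to 3. The aortic groups did not overlap, yet the gene was just outside the threshold (log2 fold change -2.69, 95% interval -3.95 to -1.43, adjusted p = 0.0649). Among all tested genes, 22.4% kept the aortic groups apart in this way and 18.9% those of fat.

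In fat, Cd52 had 112, 17.5 and 18.8 CPM in LYVE1+ libraries 1 to 3, against 230, 128 and 157 CPM in LYVE1- libraries 1 to 3. Fat LYVE1+ library 1 was at 6.41 times the lowest library of its group. The log2 fold change in fat was -1.82 (95% interval -3.05 to -0.60, adjusted p = 0.107). All 3 fat LYVE1+ libraries were nonetheless below the 3 fat LYVE1- libraries. With the library number as a block, same-numbered libraries were treated as pairs. Cd52 was then called in fat (log2 fold change -2.31, SE 0.38, adjusted p = 0.00670), and 915 genes were called in place of 558.

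Leaving out fat LYVE1+ library 1, Cd52 was called in both tissues, with a log2 fold change of -3.23 (SE 0.30, adjusted p = 6.36e-05) in fat and -2.69 (SE 0.25, adjusted p = 0.000101) in the aorta, where the estimate was the same and the SE smaller. The aortic gene was also called without fat LYVE1+ library 2 (adjusted p = 0.0380) or 3 (adjusted p = 0.0429). DESeq2 (adjusted p = 0.00497), a fit of only the aortic groups (adjusted p = 0.000487) and a fit with no filter (adjusted p = 1.13e-06) called it as well, and in fat Cd52 was called with no filter (adjusted p = 0.000302). Within each fat sort, library 1 was the highest for Cd52 and for both sums of lymphocyte markers given above. Across the sorts this did not hold. Fat LYVE1+ library 1 had the most of these markers, yet less Cd52 than each fat LYVE1- library. In the aorta the B and plasma cell markers totalled 7.74 to 77.1 CPM over the LYVE1+ libraries, against 70.1 to 140 CPM over the LYVE1- libraries. The part of lymphocyte RNA in the levels of Cd52 was not tested.

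**Figure D2:**
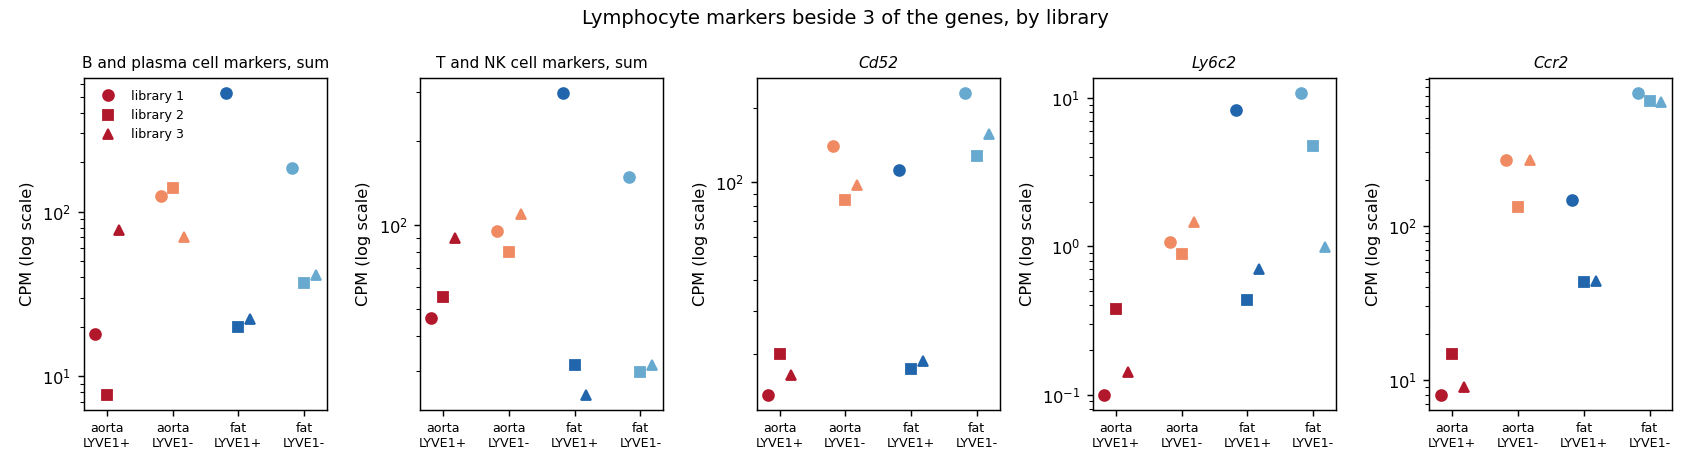
Summed CPM of 7 B and plasma cell markers and of 12 T and NK cell markers, beside the CPM of Cd52, Ly6c2 and Ccr2. All are on log axes, by group and library number. Of the T and NK sum, Cd4 alone is 16.1 to 20.3 CPM in fat libraries 2 and 3, and 40.2 to 84.4 CPM in aortic libraries. Fat LYVE1+ library 1 (circles in the third column) is the highest of its group in all 5 panels, with 524 CPM of B and plasma cell markers and 112 CPM of Cd52.

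Ly6c2 (ENSMUSG00000022584.13, minus strand of chromosome 15, 75108158 to 75111970, 2.74 kb of merged exons), which encodes a form of the Ly6C antigen of classical monocytes, was near the limit of detection. In the aorta it had 2, 5 and 2 counts in LYVE1+ libraries 1 to 3 (0.1, 0.376 and 0.142 CPM), against 16, 26 and 24 counts in LYVE1- libraries 1 to 3 (1.07, 0.882 and 1.46 CPM). The groups did not overlap, as was so for 22.4% of all tested genes. There were 9 counts over the aorta LYVE1+ group (exact Poisson 95% interval 4.12 to 17.1, counting error only) and 66 over the aorta LYVE1- group (51 to 84). The log2 fold change was -2.45 (95% interval -4.95 to 0.05, adjusted p = 0.458), and -3.15 without aorta LYVE1+ library 2.

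In fat, Ly6c2 had 8.25, 0.433 and 0.706 CPM in LYVE1+ libraries 1 to 3, against 10.7, 4.71 and 0.996 CPM in LYVE1- libraries 1 to 3. Both fat libraries numbered 1 were the highest of their sort, and the groups overlapped. The log2 fold change was -0.86 (95% interval -3.06 to 1.35, adjusted p = 0.764), and without fat LYVE1+ library 1 it was -3.24 (SE 1.01, adjusted p = 0.0759). Without fat LYVE1- library 1 it was 0.08, so that even the sign rests on single libraries. Lymphocyte markers were highest in the same 2 libraries, and their part in the Ly6c2 counts was not tested.

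Plac8 (ENSMUSG00000029322.11, minus strand of chromosome 5, 100553725 to 100572245, 1.59 kb of merged exons) encodes a small cysteine-rich protein inside the cell, abundant in classical monocytes and in some lymphocytes. In the aorta it had 1.5, 1.58 and 4.84 CPM in LYVE1+ libraries 1 to 3, against 9.43, 5.87 and 3.28 CPM in LYVE1- libraries 1 to 3. LYVE1+ library 3 was above LYVE1- library 3, and the log2 fold change was -1.23 (95% interval -2.31 to -0.16, adjusted p = 0.359). With the identifier prefix in the model it was -0.35 (adjusted p = 0.988), and without aorta LYVE1+ library 3, the one that overlaps, it was -2.0 (adjusted p = 0.183).

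In fat, Plac8 had 23.0, 27.3 and 22.5 CPM in LYVE1+ libraries 1 to 3, against 17.1, 7.65 and 8.66 CPM in LYVE1- libraries 1 to 3. All 3 LYVE1+ libraries were above the 3 LYVE1- libraries, the reverse of Ccr2, Cx3cr1 and Cd52 in the same libraries. The fat groups were kept apart, in either direction, by 18.9% of all tested genes, and Plac8 was not called. The log2 fold change was 1.13 (95% interval 0.09 to 2.16, adjusted p = 0.266) and 1.17 without fat LYVE1+ library 1, whose Plac8 level lay between those of the other 2 libraries of its group. The LYVE1 effect in the aorta minus that in fat was -2.36 (95% interval -3.85 to -0.87, adjusted p = 0.417). It was -3.13 without aorta LYVE1+ library 3 (adjusted p = 0.174), -1.48 with the prefix in the model, and called by a narrow margin with no filter on low counts (-2.36, adjusted p = 0.0498). None of the 5 genes was called for this difference between tissues, and 0.155% of all tested genes were, 22 in all (0.148% higher and 0.00703% lower). At an unadjusted p below 0.05 it was 862 genes, among them Cx3cr1 and Plac8, and DESeq2 called 103 genes and none of the 5. With no filter 72 genes were called, again with Cx3cr1 and Plac8 among them.

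**Figure D3:**
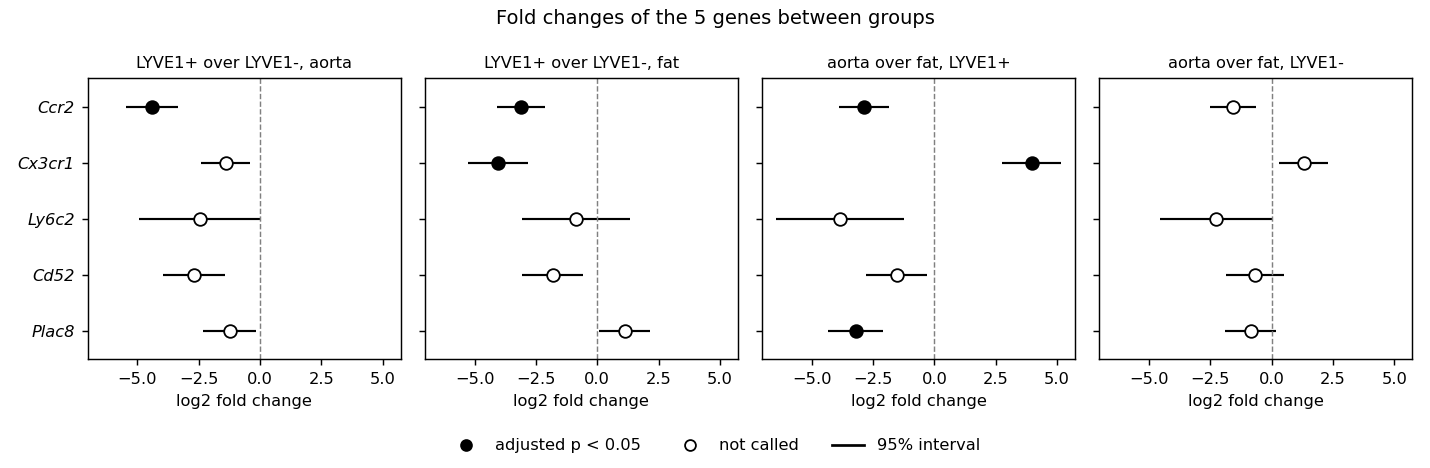
Log2 fold changes of the 5 genes in the 4 comparisons of 2 groups, with 95% intervals, filled where the adjusted p was below 0.05. Between aorta and fat LYVE1+ cells, Cx3cr1 lies at 3.96 while Ccr2 lies at -2.88 and Plac8 at -3.21, and in fat LYVE1+ against LYVE1- cells Plac8 is the only gene of the 5 with a positive value (1.13).

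Between tissues the 2 chemokine receptors went opposite ways. In aorta LYVE1+ cells, against fat LYVE1+ cells, Cx3cr1 was 15.5-fold higher (3.96 with an SE of 0.56 on the log2 scale, adjusted p = 0.00257). Ccr2 was 7.35-fold lower in the same comparison (-2.88 with an SE of 0.47 on the log2 scale, adjusted p = 0.00574), and Plac8 was 9.23-fold lower (-3.21 with an SE of 0.52 on the log2 scale, adjusted p = 0.00588). The groups overlapped for none of these 3 genes. Of the 5, 1 was thus called higher and 2 lower in aorta LYVE1+ cells, where 1.88% of all tested genes were called higher and 1.12% lower (3.00% in either direction). Such separation was seen for 20.6% of all tested genes there.

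The 3 calls between the LYVE1+ groups held in each of the 12 fits that left out 1 library. Without fat LYVE1+ library 1 the log2 fold change was 4.55 for Cx3cr1, -2.06 for Ccr2 and -3.25 for Plac8. Without aorta LYVE1+ library 2 it was 3.20 for Cx3cr1, and without aorta LYVE1+ library 3 it was -3.97 for Plac8. Among libraries with the prefix RMM alone, aorta LYVE1+ libraries 1 and 2 had 47.7 and 132 CPM of Cx3cr1, against 2.32 to 9.02 CPM in fat LYVE1+ libraries. They also had less Ccr2 and less Plac8 than each fat LYVE1+ library, as given above. Ly6c2 had a log2 fold change of -3.85 (95% interval -6.45 to -1.26, adjusted p = 0.121) and -1.47 without fat LYVE1+ library 1. For Cd52 it was -1.54 (95% interval -2.77 to -0.30, adjusted p = 0.204), and -0.12 without that library (adjusted p = 0.884). With no filter both were called (Ly6c2 -3.80, adjusted p = 0.0170, and Cd52 -1.49, adjusted p = 0.00608), and DESeq2 called Ly6c2 (-3.93, adjusted p = 0.0104).

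In LYVE1- cells of aorta against fat, none of the 5 genes was called, where 2.48% of all tested genes were (1.66% higher and 0.823% lower). At an unadjusted p below 0.05 it was 2155 genes, Ccr2 and Cx3cr1 among them. DESeq2 also called none of the 5 there, whereas a fit of only these 2 groups called Ccr2 (adjusted p = 0.0220) and Cx3cr1 (adjusted p = 0.0439). With no filter both were called as well (Ccr2 adjusted p = 0.000312, Cx3cr1 adjusted p = 0.00519). The signs of the receptors were those of the LYVE1+ cells, with Ccr2 at -1.58 (95% interval -2.51 to -0.65, adjusted p = 0.0783) and Cx3cr1 at 1.31 (95% interval 0.31 to 2.31, adjusted p = 0.176), and both genes kept the libraries of aorta and fat apart. This was so for 21.1% of all tested genes. All aorta LYVE1- libraries carry the identifier prefix RHH and all fat libraries RMM, so between these 2 groups tissue and prefix cannot be told apart. In the fit of all 4 groups with the prefix as a term, which draws on the aorta LYVE1+ libraries, the value was -1.25 for Ccr2 (SE 0.82, adjusted p = 0.877), 2.53 for Cx3cr1 (SE 0.81, adjusted p = 0.630) and -2.49 for Plac8 (SE 0.71, adjusted p = 0.535). In that fit it was -1.62 for Ly6c2. Ccr2 was called there without fat LYVE1+ library 1 (log2 fold change -1.59, adjusted p = 0.00586). The values of Ly6c2, Cd52 and Plac8 were -2.26 (95% interval -4.53 to 0.00), -0.67 (-1.84 to 0.50) and -0.85 (-1.89 to 0.19). For Ly6c2 it was -1.33 without fat LYVE1- library 1.

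Placed by group mean, Ccr2 and Cd52 shared 1 order, from fat LYVE1- through aorta LYVE1- and fat LYVE1+ down to aorta LYVE1+. For Ccr2 the neighbours aorta LYVE1- and fat LYVE1+ overlapped, through fat LYVE1+ library 1, and the other neighbours did not. For Cd52 all neighbours overlapped. Cx3cr1 ran from aorta LYVE1- through fat LYVE1- and aorta LYVE1+ to fat LYVE1+, with fat LYVE1- and aorta LYVE1+ overlapping. Plac8 was highest in fat LYVE1+ cells, followed by fat LYVE1-, aorta LYVE1- and aorta LYVE1+ cells, and only the first step was free of overlap. Ly6c2 ran from fat LYVE1- through fat LYVE1+ and aorta LYVE1- to aorta LYVE1+, with overlap at all but the last step.

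The balance of the 2 receptors within a library separated the tissues. Per kb of exon, the ratio of the Ccr2 level to the Cx3cr1 level was 0.112, 0.0749 and 0.155 in aorta LYVE1+ libraries 1 to 3, and 0.944, 0.754 and 0.676 in aorta LYVE1- libraries 1 to 3. In fat it was 10.9, 7.59 and 12.7 in LYVE1+ libraries 1 to 3, and 7.45, 5.22 and 5.13 in LYVE1- libraries 1 to 3. On that scale all aortic libraries were below 1 and all fat libraries above 5, and no 2 groups overlapped. Without the division by length, aorta LYVE1- libraries were at 1.02 to 1.42 and fat libraries at 7.69 to 19.0. Between the LYVE1- groups, tissue and identifier prefix cannot be told apart for this ratio either. Since the values that make up this ratio are those tested above, it is a description without a test of its own.

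**Figure D4:**
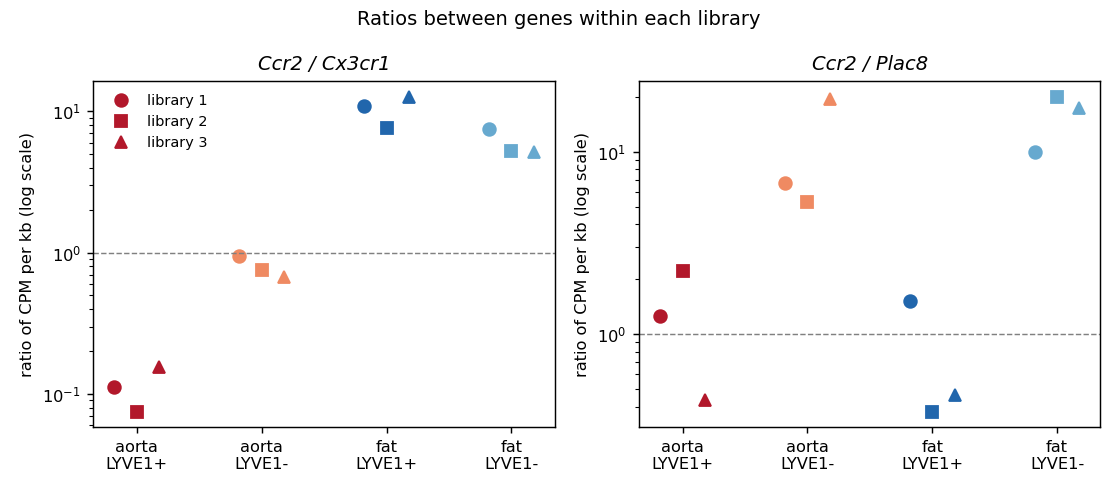
Ratio of the levels of Ccr2 and Cx3cr1 (left) and of Ccr2 and Plac8 (right) within each library, as CPM per kb of merged exons on log axes, with a dashed line at 1. The Ccr2 to Cx3cr1 ratio is 0.0749 to 0.944 in aortic libraries and 5.13 to 12.7 in fat libraries, and the Ccr2 to Plac8 ratio is 0.375 to 2.21 in LYVE1+ libraries and 5.29 to 20.0 in LYVE1- libraries.

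The ratio of Ccr2 to Plac8 followed the sort in place of the tissue. Per kb it was 0.436 to 2.21 for aorta LYVE1+ cells, against 5.29 to 19.4 for aorta LYVE1- cells. In fat it was 0.375 to 1.51 in LYVE1+ libraries and 9.96 to 20.0 in LYVE1- libraries. Per kb, the mean levels in aorta LYVE1+ cells were 16.1 CPM for Cx3cr1, 14.1 for Cd52, 1.66 for Plac8, 1.57 for Ccr2 and 0.0752 for Ly6c2. In fat LYVE1- cells they were 145 CPM per kb for Cd52, 99.1 for Ccr2, 17.1 for Cx3cr1, 7.01 for Plac8 and 2.00 for Ly6c2.

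Near copies and overlapping genes limit 2 of the 5 genes. Of the windows of 51 bases in the Ly6c2 transcripts, the length of 1 read, 14.2% also occur in transcripts of another gene, chiefly Ly6c1, its neighbour on chromosome 15. How reads that map to several genes were counted is not given in the sources used here. Ly6c1, which encodes the other form of Ly6C and is known from endothelium, lay between 1.10 and 3.16 CPM in aorta LYVE1+ libraries, against 1.61 to 2.95 CPM in aorta LYVE1- ones. In fat it lay between 1.92 and 4.41 CPM in LYVE1+ libraries, against 1.47 to 5.89 CPM in LYVE1- ones.

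For Cd52 the share was 8.81%, all of it with Crybg2, which lies on the opposite strand and covers 172 bases (14.5%) of the Cd52 exons. Since no strand setting is given, reads of the pair cannot be told apart there, but Crybg2 itself had at most 15 counts in any library against at least 187 for Cd52. The share of such windows was 1.86% for Ccr2, 1.01% for Cx3cr1 and 0 of 1555 windows for Plac8. The antisense gene Gm33858 covers 78 bases (1.73%) of the Cx3cr1 exons.

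Patterns over the 12 libraries were set against 6966 other genes whose mean log2 CPM was 4 or more, by the root mean square difference of log2 CPM after each gene was centred on its mean. The genes nearest to Ccr2 were Aldh1a2 (0.73), Fn1 (0.80) and Ear2 (0.80), where the median over all these genes was 2.31. Nearest to Cx3cr1 were Lilra5 (0.61), Col14a1 (0.95) and Lpcat2 (1.01), with a median of 2.12. For Cd52 they were Gpr132 (0.36), Ciita (0.42) and H2-DMb1 (0.44), with a median of 1.52. Ly6c2 had B4galnt1 (0.75), Map4k1 (0.81) and Scd1 (0.87) beside it, and Plac8 had Mir22hg (0.59), Gm26532 (0.72) and Retnla (0.76), with medians of 1.74 and 1.37. Among the 5 themselves, Ly6c2 and Cd52 (0.99) and Ccr2 and Cd52 (1.02) were nearest, and Cx3cr1 and Plac8 (3.13) were farthest apart.

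Other genes of monocytes were called in both directions. Of all tested genes, 0.542% were called in the aorta and 3.93% in fat. Of 16 classical monocyte genes, all tested, none was called in the aorta (7 negative, median log2 fold change 0.08), while in fat 2 were higher in LYVE1+ cells and 2 lower (10 negative, median -0.41). The higher ones were Mgst1, a glutathione transferase (log2 fold change 1.59, adjusted p = 0.00693), and Emilin2, a matrix glycoprotein (0.66, adjusted p = 0.0329). The lower ones were S100a4, a calcium binding protein (-1.20, adjusted p = 0.0341), and Ms4a4c, a membrane protein (-1.81, adjusted p = 0.0384). The call of Mgst1 held in each of the 12 fits that left out 1 library. That of Emilin2 was lost in 6 of them (without aorta LYVE1- library 2 or 3, or library 2 or 3 of either fat sort, adjusted p 0.0504 to 0.164). That of S100a4 was lost in 4 (without fat LYVE1+ library 2 or 3, or fat LYVE1- library 1 or 3, adjusted p 0.0693 to 0.153). That of Ms4a4c was lost in 7 (without library 1 of either aortic sort, fat LYVE1+ library 2 or 3, or any fat LYVE1- library, adjusted p 0.0512 to 0.172). When only the 2 fat groups were fitted, the calls of Emilin2 (adjusted p = 0.151), S100a4 (adjusted p = 0.145) and Ms4a4c (adjusted p = 0.112) were lost too. Lyz2, the macrophage lysozyme, was at 0.15 in the aorta (adjusted p = 0.785), and Fn1, fibronectin, at -3.45 (adjusted p = 0.125).

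Of 13 nonclassical monocyte genes, Fcgr4, an activating Fc receptor, was lower and Ceacam1, an adhesion molecule, higher in LYVE1+ cells of both tissues. Fcgr4 had a log2 fold change of -1.76 in the aorta (adjusted p = 0.0124) and -3.21 in fat (adjusted p = 0.000243), and Ceacam1 had 0.91 (adjusted p = 0.0375) and 1.00 (adjusted p = 0.00641). In the aorta Ear2, a ribonuclease, was lower as well (-4.81, adjusted p = 0.0490), which made 2 lower and 1 higher (10 of 13 negative, median -0.63). In fat Spn, the sialoglycoprotein CD43 (-1.61, adjusted p = 0.0370), and Cd300ld (-0.81, adjusted p = 0.0196) were lower, which made 3 lower and 1 higher (9 of 13 negative, median -0.63). Of all tested genes, 0.429% were called lower and 0.113% higher in the aorta, and 2.10% lower and 1.82% higher in fat. In fat the calls of Fcgr4 and Ceacam1 held in each fit that left out 1 library. In the aorta that of Fcgr4 was lost without library 1 of either sort (adjusted p 0.0653 to 0.0676). Those of Ceacam1 (9 of 12 fits, adjusted p 0.0621 to 0.238) and Ear2 (8 of 12 fits, 0.0568 to 0.276) were lost without any 1 aortic library, or fat LYVE1- library 2 or 3, and that of Ceacam1 also without fat LYVE1+ library 2. That of Cd300ld was lost without fat LYVE1+ library 2 or fat LYVE1- library 2 or 3 (0.0783 to 0.0890). That of Spn was lost in 9 fits, without aorta LYVE1+ library 3, fat LYVE1+ library 2 or 3, or any LYVE1- library (0.0506 to 0.154). With the identifier prefix in the model the aortic calls of Fcgr4 (adjusted p = 0.550), Ceacam1 (adjusted p = 0.566) and Ear2 (adjusted p = 0.758) were all lost. Fitting only the 2 fat groups lost Cd300ld (adjusted p = 0.111) and Spn (adjusted p = 0.123), and Spn was also lost with no filter, with the prefix and without both fat libraries numbered 1 (adjusted p = 0.0532, 0.0549 and 0.0526). None of the 9 transcription factors of the monocyte lineage, Spi1 and Zeb2 among them, was called in either tissue (medians 0.02 in the aorta and -0.02 in fat).

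The ligand side of both receptors was not called by LYVE-1. Of 6 genes, the CCR2 ligands Ccl2, Ccl7 and Ccl12, the CX3CR1 ligand Cx3cl1 and its sheddases Adam10 and Adam17, none passed the test in either tissue (medians -0.06 in the aorta and -0.27 in fat). Mean Ccl2 was 1587 CPM for LYVE1+ and 1590 CPM for LYVE1- cells of the aorta, and 920 CPM for LYVE1+ and 1070 CPM for LYVE1- cells of fat. Ccl7 was at 0.12 in the aorta and 0.32 in fat on the log2 scale (adjusted p = 0.947 and 0.774).

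Of 22 further chemokine receptors 16 were tested, and none was called in the aorta (12 negative, median -0.85). In fat LYVE1+ cells Cxcr3, the receptor for interferon-induced chemokines, was higher (log2 fold change 2.40, adjusted p = 0.00188) and Ccrl2, an atypical receptor that binds chemerin, lower (-1.47, adjusted p = 0.00129), with a median of 0.29. Of 12 further Ly6 genes 5 were tested, and Ly6e was higher in fat LYVE1+ cells (1.58, adjusted p = 0.0103) with no call in the aorta. The calls of Cxcr3 and Ccrl2 held without each library in turn, and that of Ly6e was lost without fat LYVE1+ library 2 (adjusted p = 0.0593) or 3 (adjusted p = 0.0560), and when only the 2 fat groups were fitted (adjusted p = 0.0886).

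Resident macrophage genes lay on the other side. All 15 had positive values in both tissues (median 0.67 in the aorta and 0.93 in fat). Vsig4, a complement receptor, was called higher in the aorta, and 7 were called higher in fat, Lyve1 itself among them. Over all tested genes, 0.113% were called higher in the aorta and 1.82% in fat. Negative values were seen for 51.4% of all tested genes in the aorta and 49.4% in fat. Vsig4 was higher in LYVE1+ cells of the aorta (log2 fold change 2.87, adjusted p = 0.0103) and of fat (4.49, adjusted p = 0.000520), and its aortic call was lost when library 1 of the LYVE1- sort was dropped (2.77, adjusted p = 0.0831) and with the identifier prefix in the model (adjusted p = 0.309). Timd4, a receptor for dying cells, was higher in fat (2.16, adjusted p = 0.00586), a call lost when only the 2 fat groups were fitted (adjusted p = 0.0688). This list was drawn up with earlier results of these libraries known and is no independent support for the direction of Ccr2 or Cx3cr1.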

How the data were processed

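Bulk RNA-seq (Smart-seq2 from 2 ng of RNA, paired reads of 51 cycles, per the labels' protocols) had been made from 12 libraries in 4 groups of 3. The authors deposited raw counts per gene and a table of log2 CPM values. Per the submitters' processing notes, the tools were edgeR 3.14.0, featureCounts 1.5.0 and STAR 2.5.2b, with the build GRCm38. The annotation and the settings for strand and multiple hits are not given in the sources used here. The deposited log2 values equal edgeR log2 CPM with a prior count of 0.25 (largest difference 4.97e-14), and no 2 libraries were identical.

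The counts were fitted for all 4 groups together with edgeR 4.0.16 in R 4.3.3 (TMM scaling, filterByExpr with a minimum count of 10, quasi-likelihood test, 8 residual degrees of freedom), and p-values were Benjamini-Hochberg adjusted over 14216 genes, with a threshold of 0.05. The test was checked on simulated counts. CPM values use TMM library sizes, except marker sums and the values of single genes in them, which use plain totals. Intervals of counts are exact Poisson intervals. Levels per kb divide by the merged exon length from the GENCODE annotation of the same build. The 5 genes, the gene lists and the tests were chosen with earlier results of these data known. All 5 genes were named. From each further list up to 4 called genes with the smallest adjusted p in a LYVE1 comparison were named, or the 2 with the highest mean where none was called, and for each of the 5 the 3 genes nearest in pattern.

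The labels number the libraries but do not say that same-numbered ones are pairs. In fat the deviations of same-numbered libraries from their group means correlated at 0.49, 0.28 and 0.18. Of the 6 fat libraries, 4 correlated best with their own number. Deviations cancel within a group and both fat libraries numbered 1 stood apart, so these correlations are not independent and do not settle the pairing. The alternatives were RLE scaling, DESeq2 1.42.0, no filter, fits of only the groups compared, the replicate number as a block, the prefix of the library identifier as a covariate, each library left out in turn, both fat libraries numbered 1 left out, and mitochondrial and erythroid genes left out.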

Additional observations from a re-analysis of the deposited data

How the results depend on the processing

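Of 494 values of the 5 genes under the alternatives, 465 kept their sign and their side of the threshold, 24 passed it newly, 1 lost it (Ccr2 in the aorta with the identifier prefix in the model) and 4 changed sign. None of the sign changes was of a called value. Without fat LYVE1+ library 1, the aorta minus fat difference of the LYVE1 effect was 0.79 for Ly6c2 and 0.55 for Cd52, and without both fat libraries numbered 1 it was 0.28 for Cd52. Leaving out 1 library gave -2.53 to 0.79 and -1.26 to 0.55 for these differences. For Ly6c2 in fat it gave -3.24 (without fat LYVE1+ library 1) to 0.08 (without fat LYVE1- library 1). Of 380 values of the other named genes, 315 kept their call and 65 lost it.

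The number of all genes called moved further, from 77 (LYVE1 in the aorta), 558 (LYVE1 in fat), 22 (their difference), 426 (aorta against fat, LYVE1+) and 353 (aorta against fat, LYVE1-). In that order, DESeq2 called 360, 1005, 103, 922 and 847 genes, and leaving out both fat libraries numbered 1 gave 566, 887, 84, 890 and 1024. With no filter it was 336 for LYVE1 in the aorta, 72 for the difference, 820 for LYVE1+ and 647 for LYVE1- cells between tissues. With the prefix in the model it was 2, 0, 181 and 7 for the same 4. Fits of only the groups compared gave 294 in the aorta, 206 in fat and 243 between LYVE1+ groups. The replicate block within a tissue gave 915 in fat and 243 in the aorta. Deviations of same-numbered aortic libraries correlated at -0.04, -0.08 and -0.17. Cd52 was called under the block in both tissues, and the block changed no other call of the 5 genes. Leaving out 1 library gave 23 (without aorta LYVE1- library 1) to 210 (without fat LYVE1+ library 1), 219 (without fat LYVE1+ library 2) to 1025 (without fat LYVE1+ library 1), 0 (without any of 7 libraries) to 47 (without fat LYVE1+ library 1), 172 (without fat LYVE1+ library 3) to 538, and 98 (without fat LYVE1- library 3) to 531 (without fat LYVE1+ library 1).

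Of the 5 genes, 2 were called by LYVE-1 in the aorta with DESeq2, with only the aortic groups, with the block and without both fat libraries numbered 1, 3 with no filter and 0 with the prefix. Between LYVE1- groups 2 were called with no filter or with only those groups, and 1 without both fat libraries numbered 1. With no filter 5 were called between LYVE1+ groups and 2 for the difference. Leaving out 1 library gave 1 to 2 in the aorta, 2 to 3 in fat, 0 for the difference, 3 between LYVE1+ groups and 0 to 1 between LYVE1- groups. RLE scaling and leaving out mitochondrial and erythroid genes moved no count past 1.5 times. Where counts moved, the cause was not tested. Depth limits Ly6c2 most, with 2 to 84 counts per library.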
